A study of Mus musculus with 2 samples.

Results

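VSMCs-2 is the larger of the smooth muscle classes that the study's authors named among single cells of the mouse aorta. Its members were taken from the authors' deposited annotation, as all barcodes given that class in either library, and they numbered 1352 of 5584 annotated cells. The diabetic library held 856 VSMCs-2 cells and the control library held 496. Every mouse was a male Apoe -/- animal on the C57BL/6 background, aged 17 weeks at collection; mice of this genotype lack apolipoprotein E, carry high plasma cholesterol and develop atherosclerosis. The diabetic group had received streptozotocin, a toxin of the insulin-producing beta cells, by intraperitoneal injection at 55 mg per kg a day for 5 consecutive days from 6 weeks of age, the control group had received citrate vehicle, and both were followed for 10 weeks. Each group is a single library made from the aortae of 4 mice, digested together with enzymes at body temperature and sorted for viable cells. There is therefore no replicate check, every interval below covers counting error only, and no p-value was computed. The series asks about AP-1, the transcription factor family of Fos and Jun proteins, in diabetes-associated atherosclerosis.

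Vascular smooth muscle cells build the media, the contractile middle layer of the artery wall. They hold smooth muscle actin, smooth muscle myosin, calponin and transgelin, shorten when calcium activates myosin light chain kinase, and secrete the elastin and collagen around them. In atherosclerosis some of them leave this contractile state, lose these proteins and take up a matrix-secreting state, often called modulated. Rgs5, a protein that switches off signalling from G protein coupled receptors, is known from pericytes and from the smooth muscle of particular arterial beds.

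VSMCs-2 made up 33.9% of annotated cells in the diabetic library (exact 95% interval 32.1 to 35.8) and 16.2% in the control library (14.9 to 17.6). Within the smooth muscle classes alone its share was 84.3% (82.0 to 86.5) in the diabetic library and 78.7% (75.3 to 81.9) in the control library, the rest being VSMCs-1. The class was drawn from these cells' own transcripts, Rgs5 among its markers differed between the libraries, and the yield of the digestion is not known, so these are shares of sorted cells and not of the vessel wall. VSMCs-2 cells were deep: the median cell had 6523 UMIs (unique molecular identifiers, each standing for 1 captured transcript) and 2131 genes in the diabetic library, and 5547 UMIs and 1896 genes in the control library. Summed over cells, the class held 5718684 UMIs in the diabetic library and 2783387 in the control library. The mitochondrial share of UMIs had a median of 5.50% in diabetic cells and 4.59% in control cells. No barcode of the class occurred in both libraries, against 8 among all annotated cells.

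The 5 markers given for the class were higher in VSMCs-2 than in every class outside smooth muscle in both libraries, and VSMCs-1 held them as well. Levels are given as CPM, a gene's UMIs scaled to a total of 1000000 UMIs over the cells of a class in a library. Acta2, smooth muscle actin, stood at 28704 CPM in diabetic and 30053 CPM in control VSMCs-2 cells, while Fib-2, a fibroblast class and the next class outside smooth muscle, had 691 CPM in the diabetic library and 442 CPM in the control library. Myh11, the smooth muscle myosin heavy chain, stood at 2473 CPM in diabetic and 1933 CPM in control cells, Tagln (transgelin) at 11883 and 12479 CPM, and Cnn1 (calponin) at 2465 and 2530 CPM, in the same order. VSMCs-1 held these genes at lower levels, with Acta2 at 18253 CPM in diabetic and 20682 CPM in control cells and Cnn1 at 2174 and 2369 CPM. Rgs5 was higher in VSMCs-1, at 2185 CPM in diabetic and 2313 CPM in control cells, than in VSMCs-2, at 1937 and 925 CPM. With every cell thinned to 1000 UMIs, Acta2 and Tagln were seen in at least 99.6% of VSMCs-2 cells of either library. Myh11 was then seen in 89.1% of diabetic cells (86.9 to 91.1) and 79.4% of control cells (75.6 to 82.9). In macrophages (Mac), which should lack it, Myh11 was seen in 2.51% of thinned diabetic cells and 0.805% of thinned control cells, where the median unthinned depth was 4129 and 4506 UMIs.

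**Figure D1:**
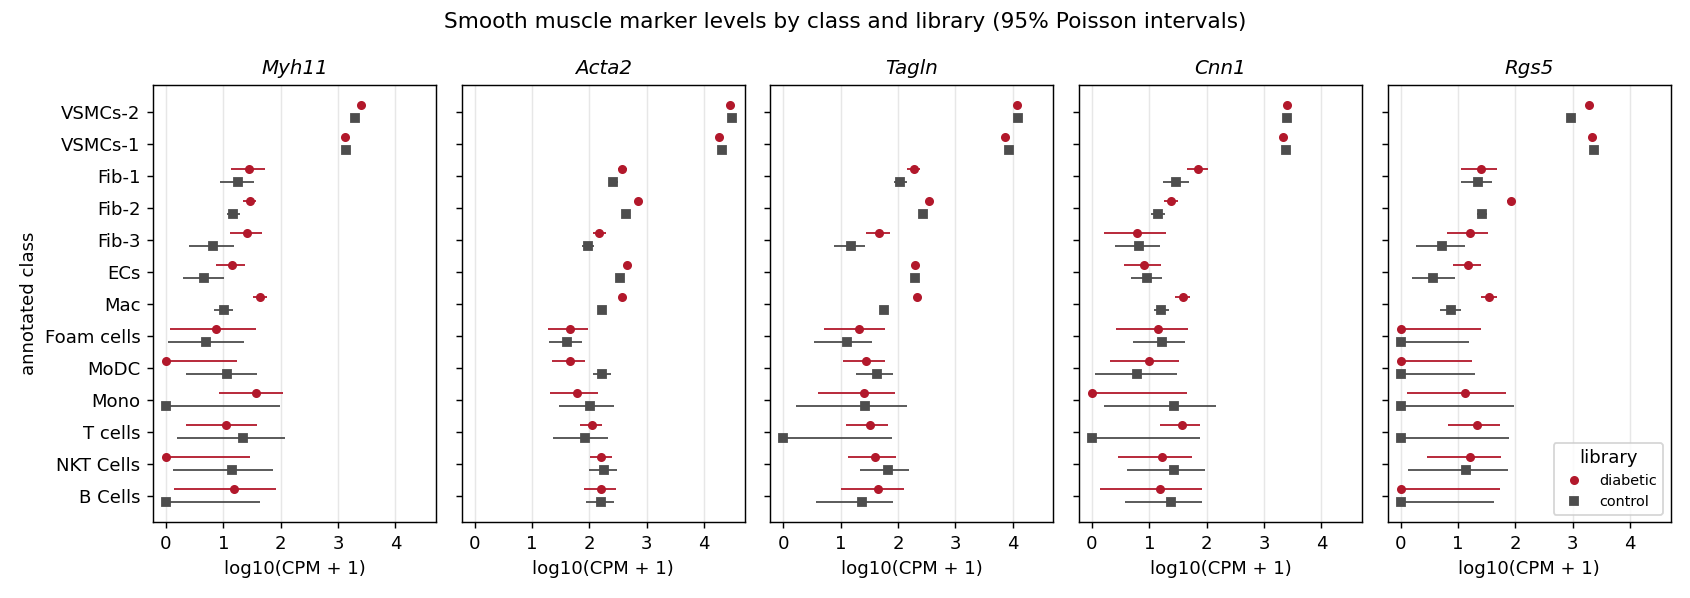
Levels of the 5 markers in each annotated class, as log10 of CPM plus 1, with the diabetic library in red circles above the control library in grey squares and 95% Poisson intervals as bars. Both smooth muscle classes stand apart from all 11 other classes, and of the 5 the libraries stand farthest apart on Rgs5 within VSMCs-2, at 1937 CPM in the diabetic and 925 CPM in the control library.

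Beyond these markers, the genes that set VSMCs-2 farthest above every class outside smooth muscle were of the contractile cell as well. These are descriptions of a class built from these same genes and carry no test. Kcnmb1, the beta subunit of the calcium-activated BK potassium channel that limits contraction, had 226 CPM in the diabetic and 219 CPM in the control library. Actg2 (enteric smooth muscle actin), Tpm2 (tropomyosin), Synpo2 (an actin-bundling protein of the Z disc), Myl9 (the myosin light chain phosphorylated in contraction) and Sost (sclerostin, a secreted inhibitor of Wnt signalling) were also among the leading 15.

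VSMCs-2 was told from VSMCs-1 mainly by what VSMCs-1 holds. Adamtsl1, a secreted protein of the matrix, had 2.27 CPM in diabetic and 2.16 CPM in control VSMCs-2 cells, against 202 and 111 CPM in VSMCs-1. Gpc3 (a cell surface heparan sulfate proteoglycan), Enpp2 (autotaxin, which makes lysophosphatidic acid) and Frzb (a secreted Wnt antagonist) were at most 0.13 times as high in VSMCs-2 as in VSMCs-1 in either library. On the other side, VSMCs-2 held more of the early-response transcription factors. Egr1 was 4.03 times as high as in VSMCs-1 in the diabetic library (3.20 to 5.14) and 3.08 times in the control library (2.39 to 4.04), Atf3 3.24 and 3.98 times, Jun 2.57 and 3.81 times, and Klf2, a factor induced by shear stress in endothelium, 6.45 and 3.44 times. VSMCs-1 cells were shallower, with a median of 2237 UMIs in the diabetic and 2128 UMIs in the control library, and the part of depth in these differences was not tested.

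Transcripts of other cell types were present in VSMCs-2 and not equal between the libraries. The 10 macrophage markers summed to 52.3 CPM in the diabetic library and 227 CPM in the control library, and 0.350% of diabetic and 1.61% of control cells held 5 or more of their UMIs. The 10 fibroblast markers summed to 161 CPM in diabetic and 511 CPM in control cells, with 3.62% of diabetic and 11.3% of control cells holding 5 or more. Both lists were thus lower in the diabetic library, in which all 10 macrophage and all 10 fibroblast markers were still detected. Red cell transcripts went the other way: the erythroid list, haemoglobin included, summed to 11616 CPM in the diabetic library, about the level of Tagln, and 134 CPM in the control library, and 8 diabetic and 0 control cells had over 10% haemoglobin UMIs. Hbb-bs, an adult beta globin, was seen in 92.2% of diabetic and 24.0% of control VSMCs-2 cells. The 8 pericyte markers summed to 2370 CPM in diabetic and 1315 CPM in control cells. Rgs5, which is on that list, gave most of both sums; Pdgfrb, Cspg4, Kcnj8, Abcc9, Notch3 and Cox4i2 had ratios of 0.77 to 1.24 and were not called, and Higd1b had 2 diabetic and 8 control UMIs. Endothelial markers summed to 87.8 CPM in diabetic and 115 CPM in control cells, and those of heart and skeletal muscle to 66.97 and 39.9 CPM. The defining T, NK and B cell and Schwann cell markers summed to at most 8.62 CPM in either library, and those of mesothelium to at most 0.719 CPM. Smooth muscle transcripts were likewise found in other classes, with Acta2 at 375 CPM in diabetic and 162 CPM in control macrophages.

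The cells of the class differed most from each other in a short list of genes. At 2000 UMIs per cell, the ratio of variance to mean, which is 1 for pure counting noise, was highest for Mgp, the matrix Gla protein that inhibits mineralisation, at 30.4 in the diabetic and 48.9 in the control library. By the lower of the libraries' values, Malat1 (a nuclear noncoding RNA), Mt1, Mt2 (metallothioneins, which bind zinc and copper), Actb, Rgs5, Fos, Acta2, Crip1, Tmsb4x, Fn1, Atf3, Sncg and Des followed in that order. Acta2 and Mgp were weakly opposed over cells, with Pearson's r of -0.28 over 856 diabetic cells and -0.39 over 496 control cells. These cells share a library, and as shares of 1 fixed depth a high level of one transcript lowers the others.

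Rgs5 (chromosome 1, 169655501 to 169695813, plus strand of GRCm38) was present in some VSMCs-2 cells and not detected in the others. After thinning to 2000 UMIs, 514 of 856 diabetic cells held an Rgs5 UMI, or 60.0% (56.7 to 63.3), against 178 of 496 control cells, or 35.9% (31.7 to 40.3). Unthinned, the shares were 72.1% in diabetic and 47.0% in control cells. In macrophages, which should lack Rgs5, it was seen in 2.01% of diabetic and 0.604% of control cells at 1000 UMIs, where VSMCs-2 had 50.2% and 28%. Over 20 Rgs5 UMIs were found in 2.10% of diabetic cells and 0.81% of control cells. Among cells with an Rgs5 UMI, which are chosen by Rgs5 itself, its level was 3154 CPM in diabetic and 2475 CPM in control cells.

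**Figure D2:**
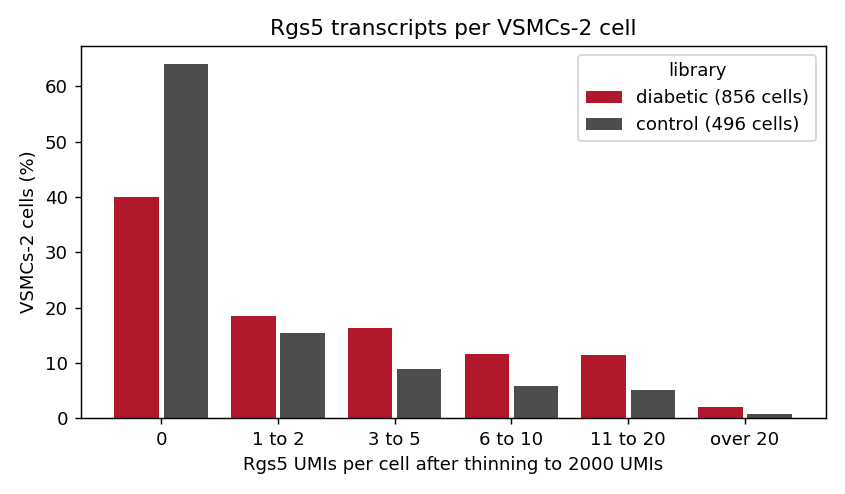
Share of VSMCs-2 cells, in percent, by the number of Rgs5 UMIs left after each cell was thinned to 2000 UMIs, with the diabetic library in red left of the control library in grey. Cells at 0 make up 40.0% of the diabetic and 64.1% of the control library, and each bin above 0 holds the larger share in the diabetic library.

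Cells with and without an Rgs5 UMI were compared within each library. Of 2996 genes with at least 100 UMIs in each library and no cell holding over 10% of them, 6 (0.200%) were at least 1.5 times as high in Rgs5-containing cells of both libraries and 22 (0.734%) were at least 1.5 times lower. In the diabetic library alone 15 further genes passed as higher and 8 as lower, and in the control library alone, with its smaller number of Rgs5-containing cells, 28 and 62. The genes named here are those that passed in both. Fn1, fibronectin (chromosome 1, 71585520 to 71653200, minus strand), had 1708 CPM in cells with Rgs5 and 755 CPM in cells without it in the diabetic library, a ratio of 2.26 (2.14 to 2.39). In the control library it had 1609 CPM with and 706 CPM without Rgs5, a ratio of 2.28 (2.12 to 2.46). The other 5 were Ccdc68, Des (desmin, the muscle intermediate filament), Rgs17 (a relative of Rgs5), Parm1 and Vcan (versican, a proteoglycan of the matrix), with ratios of 1.58 to 2.41. Over cells, Rgs5 and Fn1 had a Pearson's r of 0.44 in the diabetic and 0.46 in the control library.

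On the other side stood Sncg, gamma-synuclein (chromosome 14, 34370274 to 34374789, minus strand). It had 78.6 CPM in cells with Rgs5 and 455 CPM in cells without it in the diabetic library, and 106 and 588 CPM in the control library, which are ratios of 0.17 (0.15 to 0.20) and 0.18. Aspn (asporin, a small matrix proteoglycan), Igfbp4 (which binds insulin-like growth factors), S100a4, Crip1 and Mt2 were also lower in Rgs5-containing cells of both libraries. Depth did not separate these cells: the median was 6514 UMIs with and 6550 UMIs without Rgs5 in the diabetic library, and 5511 and 5565 UMIs in the control library. Cells with Rgs5 thus held more Fn1, and cells without it more Sncg, in each library.

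**Figure D3:**
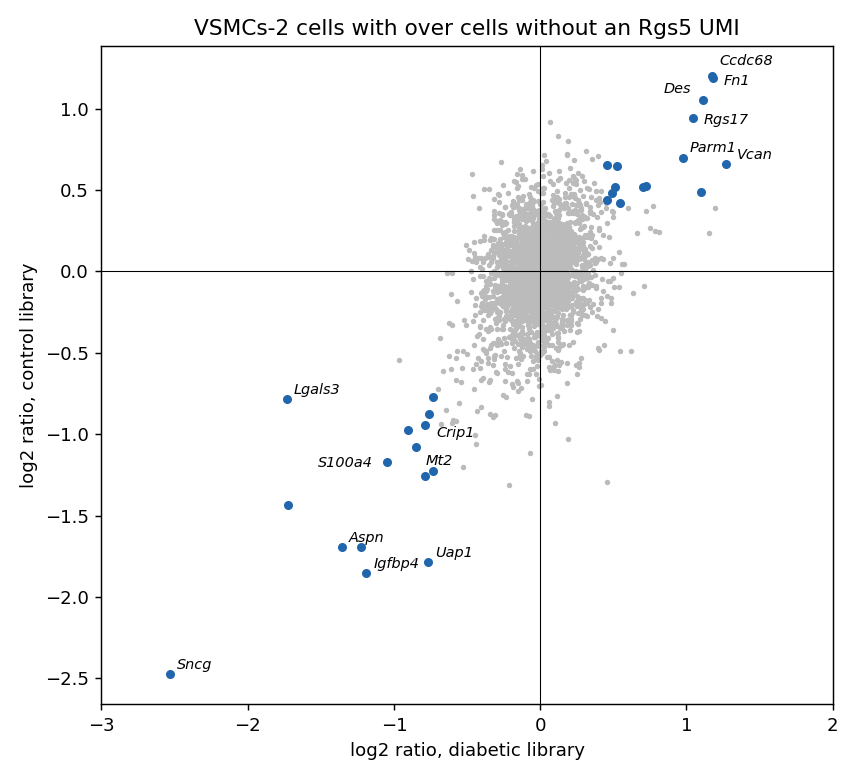
Each point is a gene, placed by the log2 ratio of its CPM in VSMCs-2 cells with over cells without an Rgs5 UMI, for the diabetic library across and the control library upward. Blue points are the 15 genes farthest out on each side in both libraries, with Fn1 and Ccdc68 at the upper right and Sncg at the lower left.

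Hox genes, whose expression follows position along the body axis, were compared next. The 6 Hox genes of groups 7 to 10, which are expressed toward the tail end of the body, summed to 113 CPM in the diabetic and 126 CPM in the control library, a ratio of 0.89 (0.78 to 1.02). The 13 of groups 1 to 6 summed to 94.8 CPM in diabetic and 72.9 CPM in control cells, a ratio of 1.30 (1.10 to 1.53). At 2000 UMIs, 19.98% of diabetic cells (17.3 to 22.8) and 21.2% of control cells (17.7 to 25.03) held a UMI of the later group. Of 2996 genes compared between cells with and without such a UMI, 2 (0.0668%) were at least 1.5-fold higher in both libraries, Rgs2 and Pja1, and 2 (0.0668%) lower, Ace (angiotensin-converting enzyme) and Lgals3. Cells with one had more Rgs5, at 1.51 times (1.45 to 1.58) the cells without in the diabetic library and 1.46 times in the control library, and less Actg2, at 0.57 and 0.71 times.

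Between diabetic and control VSMCs-2 cells, most genes were close together. A gene was called when its CPM differed at least 1.5-fold, the exact 95% interval of the ratio left out 1 and at least 30 UMIs stood behind it in both libraries together. Of 9729 genes with that many UMIs, 464 (4.77%) were called higher and 379 (3.90%) lower in the diabetic library, and the median log2 ratio over all of them was 0.02. These shares over all genes are the background for the counts of calls in each list below. With mitochondrial, ribosomal protein and haemoglobin UMIs left out of the totals the calls were 611 higher and 302 lower, with the median at 0.07. Calls spread over cells, meaning in at least 10% of the cells of the higher library and with no cell holding over 10% of the UMIs, numbered 223 higher and 140 lower.

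Among those higher in the diabetic library, Hist1h1c, a linker histone (chromosome 13, 23738808 to 23740367, plus strand), led with 190 CPM in diabetic and 57.5 CPM in control cells, a ratio of 3.31 (2.80 to 3.94). Rgs5 itself was also among them, with 1937 CPM in diabetic and 925 CPM in control cells, a ratio of 2.09 (2.01 to 2.19). Rrad, a small GTPase that inhibits voltage-gated calcium channels, had 150 CPM in diabetic and 69.7 CPM in control cells, a ratio of 2.15 (1.84 to 2.53), and Dsp, the desmosomal plaque protein desmoplakin, 71.2 and 32.3 CPM. The list also held Cirbp, Jund, Sod3, Slc25a3 (the mitochondrial phosphate carrier), Fads1 (a fatty acid desaturase), Sqle, Tceal6 and Bpgm, an enzyme abundant in red cells that is on the erythroid list and was not called, at 1.22, without the 5% of cells richest in transcripts of other types. Isyna1 (inositol-3-phosphate synthase) and Ssbp4, at 1.88 (1.55 to 2.28) and 3.16 (1.79 to 6.02), face each other on opposite strands of chromosome 8, Isyna1 ending at 70597290 and Ssbp4 at 70597490, and the strand setting of the counting is not given in the sources used here.

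Lower in the diabetic library were chaperones of the endoplasmic reticulum (ER) and transcripts of macrophages and fibroblasts. Serpinh1 (Hsp47, the chaperone of collagen) had 873 CPM in diabetic and 1536 CPM in control cells, a ratio of 0.57 (0.55 to 0.59), and Ahsa2, a relative of the activator of Hsp90, had 43.4 and 94.1 CPM, a ratio of 0.46 (0.39 to 0.55). Haus8, a subunit of the augmin complex of the spindle, had 45.3 CPM in diabetic and 95.9 CPM in control cells. Sncg had 228 CPM in diabetic and 416 CPM in control cells, a ratio of 0.55 (0.51 to 0.59). C1qa, C1qb, Lyz2, Pf4 and H2-Eb1 are macrophage or antigen-presenting cell genes, and Serpinf1, Pcolce and C1s1 are typical of fibroblasts; their ratios ran from 0.11 for C1qa to 0.44 for C1s1, beside the sums over the marker lists given above, whose part in these differences was not tested.

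Most genes of the contractile apparatus stood within 1.5-fold of each other in the libraries. Of the 24 genes on its list, all measured, 2 were called higher and 1 lower, with a median log2 ratio of 0.14 against 0.02 over all genes. Actg2 had 670 CPM in diabetic and 412 CPM in control cells, a ratio of 1.62 (1.52 to 1.74), and Des had 296 and 191 CPM, a ratio of 1.55 (1.40 to 1.71). The gene called lower was Sncg, which is on the list but encodes gamma-synuclein and no part of the contractile apparatus. Within cells that held Rgs5 the ratio was 1.31 for Des and 0.74 for Sncg, and within cells without it 1.26 and 0.77, so neither gene was called in either subset. Acta2, Tagln, Cnn1, Cald1 (caldesmon) and Tpm1 had ratios of 0.93 to 0.97, while Flna (filamin A) at 1.38, Synpo2 at 1.32 and Myh11 at 1.28 (1.24 to 1.32) were above 1 and under the 1.5-fold call.

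In signalling to the contractile machine, 3 of 18 measured genes were called higher and 1 lower. Besides Rgs5 and Rrad, Ppp1r14a (CPI-17, the inhibitor of myosin phosphatase that keeps myosin phosphorylated) had 313 CPM in diabetic and 200 CPM in control cells, a ratio of 1.57 (1.43 to 1.73). Prkg1, the cyclic GMP dependent kinase through which nitric oxide relaxes smooth muscle, had 14.7 CPM in diabetic and 26.2 CPM in control cells, a ratio of 0.56 (0.40 to 0.78). The soluble guanylate cyclase subunits upstream of it, Gucy1a1 and Gucy1b1, had ratios of 0.83 and 0.86 and were not called. Rock1 and Rock2, kinases that inhibit myosin phosphatase, stood at 1.04 and 1.00. Of 18 calcium and potassium handling genes, Trpc1 was called higher on 44 diabetic and 8 control UMIs, and Kcna5 (a voltage-gated potassium channel) was called lower at 0.50. Pln (phospholamban, the inhibitor of the calcium pump) was called lower at 0.59, but its ratio was 1.61, on the other side of 1, in cells with an Rgs5 UMI. The BK subunits Kcnma1 and Kcnmb1 were at 0.87 and 1.03.

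Chaperones were mostly lower in the diabetic library. Of 21 heat-shock genes, 8 were called lower and 0 higher, with a median log2 ratio of -0.48, and 19 had a ratio below 1. Hspa8, the constitutive Hsp70 (chromosome 9, 40800984 to 40810087, plus strand), had 2448 CPM in diabetic and 4128 CPM in control cells, a ratio of 0.59 (0.58 to 0.61). Hsp90aa1 had 704 CPM in diabetic and 1134 CPM in control cells, and Hspd1, the mitochondrial chaperonin Hsp60, had 119 and 206 CPM. The Hsp90 partners Stip1 and Ahsa1 and the nucleotide exchange factor Hsph1 were called lower too, at 0.58, 0.64 and 0.66. Hsph1 was not called, at 0.68, with mitochondrial, ribosomal protein and haemoglobin UMIs left out of the totals, or with every cell weighted equally. The stress-induced Hsp70 genes Hspa1a and Hspa1b, near-identical copies whose reads can be split between them, were not called, at 0.95 (0.88 to 1.02) and 0.87 (0.70 to 1.09), nor was Bag3 at 1.07.

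Of 22 chaperones and stress genes of the ER, 5 were called lower and 0 higher, with a median log2 ratio of -0.29. Hspa5 (BiP, the ER Hsp70; chromosome 2, 34771970 to 34777547, plus strand) had 517 CPM in diabetic and 996 CPM in control cells, a ratio of 0.52 (0.49 to 0.55). Pdia6 and Pdia4, protein disulfide isomerases, had ratios of 0.52 (0.47 to 0.58) and 0.60 (0.52 to 0.69), and Manf and Sdf2l1 of 0.61 and 0.40. Genes of the stress signal itself had ratios nearer to 1: Xbp1 was at 1.15, Atf4 at 1.01 and Ddit3 (CHOP) at 0.95, none of them called.

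The promoters of these chaperones are shown because they hold the classical elements by which unfolded protein and heat are read. RefSeq promoters (GRCm38.p6, from 250 bases before to 50 after a start) were searched on both strands for the ER stress element (CCAAT, 9 bases of any kind, then CCACG), for the heat-shock element (GAA, TTC and GAA with 2 bases of any kind between each) and for the sterol regulatory element TCACNCCAC. The ER stress element lay in 8 of 20 ER chaperone genes that had a promoter in the table, against 0.119% of all 32851 promoters, namely in 2 of the 4 called lower and 6 of the 15 not called. The heat-shock element lay in 4 of 16 heat-shock genes, against 0.603% of all promoters. These were 3 of the 6 called lower (Hspd1, Hsph1 and Chordc1) and 1 of the 10 not called (Hspe1, which lies head to head with Hspd1 and shares the matched bases). A gene was counted when any of its promoters matched, whereas the shares over all promoters are per promoter. A match is a description of the letters and no evidence of binding. The 250 bases before the start of Hspa5 (chr2:34771840-34772089, plus strand), Pdia6 (chr12:17266339-17266588, plus strand) and Hspd1 (chr1:55087933-55088182, minus strand) follow, 5′ to 3′, with the element in capitals. The starts are those of RefSeq. The GENCODE genes, whose coordinates are given elsewhere in the text, start farther upstream, so the later bases of the Hspa5 stretch, element included, the last bases of the Pdia6 stretch and all of the Hspd1 stretch lie inside the GENCODE gene. In Hspd1 the capitals hold 2 overlapping matches, on either strand.
Hspa5: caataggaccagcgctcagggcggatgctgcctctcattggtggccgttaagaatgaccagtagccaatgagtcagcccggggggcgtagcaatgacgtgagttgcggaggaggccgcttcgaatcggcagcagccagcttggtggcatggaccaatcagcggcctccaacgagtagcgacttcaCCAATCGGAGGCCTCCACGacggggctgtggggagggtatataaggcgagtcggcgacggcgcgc
Pdia6: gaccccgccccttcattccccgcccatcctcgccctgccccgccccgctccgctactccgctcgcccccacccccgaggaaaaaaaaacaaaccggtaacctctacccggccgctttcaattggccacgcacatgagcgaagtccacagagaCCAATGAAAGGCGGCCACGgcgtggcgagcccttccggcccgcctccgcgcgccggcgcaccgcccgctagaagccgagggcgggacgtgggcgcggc
Hspd1: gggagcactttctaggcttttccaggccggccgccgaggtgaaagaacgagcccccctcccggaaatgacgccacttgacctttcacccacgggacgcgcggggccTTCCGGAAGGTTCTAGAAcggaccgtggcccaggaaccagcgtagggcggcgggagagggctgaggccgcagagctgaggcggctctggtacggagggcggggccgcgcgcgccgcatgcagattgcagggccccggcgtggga

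Cholesterol genes were the group with most calls upward. Of 24 measured genes, 13 were called higher and 0 lower, with a median log2 ratio of 0.66, and 22 had a ratio above 1. Along the pathway, Hmgcs1, which makes HMG-CoA, had 76.2 CPM in diabetic and 49.2 CPM in control cells, a ratio of 1.55 (1.28 to 1.89), and Fdps, farnesyl diphosphate synthase, had 115 and 70.4 CPM, a ratio of 1.64 (1.40 to 1.93). Sqle, squalene epoxidase, had 31.0 CPM in diabetic and 14.0 CPM in control cells, a ratio of 2.21 (1.55 to 3.21). Idi1, Cyp51, Msmo1, Mvk and Nsdhl, enzymes of the same pathway, were also called higher. Srebf2, which encodes the factor that drives the pathway, was at 1.24 (1.01 to 1.53) and was not called. The sterol regulatory element as spelled above lay in 1 of 17 of these genes that had a promoter, counted per gene as above, against 1.24% of all promoters. That gene was Hmgcs1, shown with its element in capitals (chr13:119690101-119690350, plus strand).
Hmgcs1: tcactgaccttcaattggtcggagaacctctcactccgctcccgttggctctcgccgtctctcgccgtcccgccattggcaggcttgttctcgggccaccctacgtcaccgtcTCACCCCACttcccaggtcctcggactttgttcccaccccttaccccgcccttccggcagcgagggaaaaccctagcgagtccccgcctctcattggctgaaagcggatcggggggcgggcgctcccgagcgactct

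Lipid genes outside this pathway went both ways. Scd2 (stearoyl-CoA desaturase), with 60.7 CPM in diabetic and 34.5 CPM in control cells, and Srebf1, with 31.0 and 20.5 CPM, were called higher among 19 measured genes, at 1.76 (1.40 to 2.23) and 1.51 (1.12 to 2.07). Called lower were Abca1, the exporter of cholesterol to apolipoprotein A-I, at 0.38 (0.19 to 0.74) on 18 diabetic and 23 control UMIs, Angptl4 at 0.35, Plin2, the coat protein of lipid droplets, at 0.55 (0.43 to 0.70) but 1.34 with cells thinned to 1000 UMIs, and Pdk4, which holds pyruvate back from oxidation, at 0.66. Pdk4 was not called, at 0.68, with mitochondrial, ribosomal protein and haemoglobin UMIs left out of the totals. Of 24 genes of glycolysis and glucose handling, only Slc2a4 was called, near the 4.77% called higher over all genes. Slc2a4, the insulin-regulated glucose transporter GLUT4, was at 1.72 (1.12 to 2.72) on 99 diabetic and 28 control UMIs. Its ratio was 0.51, on the other side of 1, with cells thinned to 1000 UMIs. Slc2a1 was at 1.08, Txnip, a gene induced by glucose, at 0.73 (0.67 to 0.81), and Akr1b3 (aldose reductase) at 1.04. Among 21 insulin and IGF genes, Igfbp4 and Pik3r3 were called higher, and Igf1 and Igfbp6 lower, Igf1 with a ratio of 1.48 in cells with a mitochondrial share of 4 to 6%, while Insr, Irs1 and Irs2 were not called, at 0.98, 1.04 and 1.44.

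**Figure D4:**
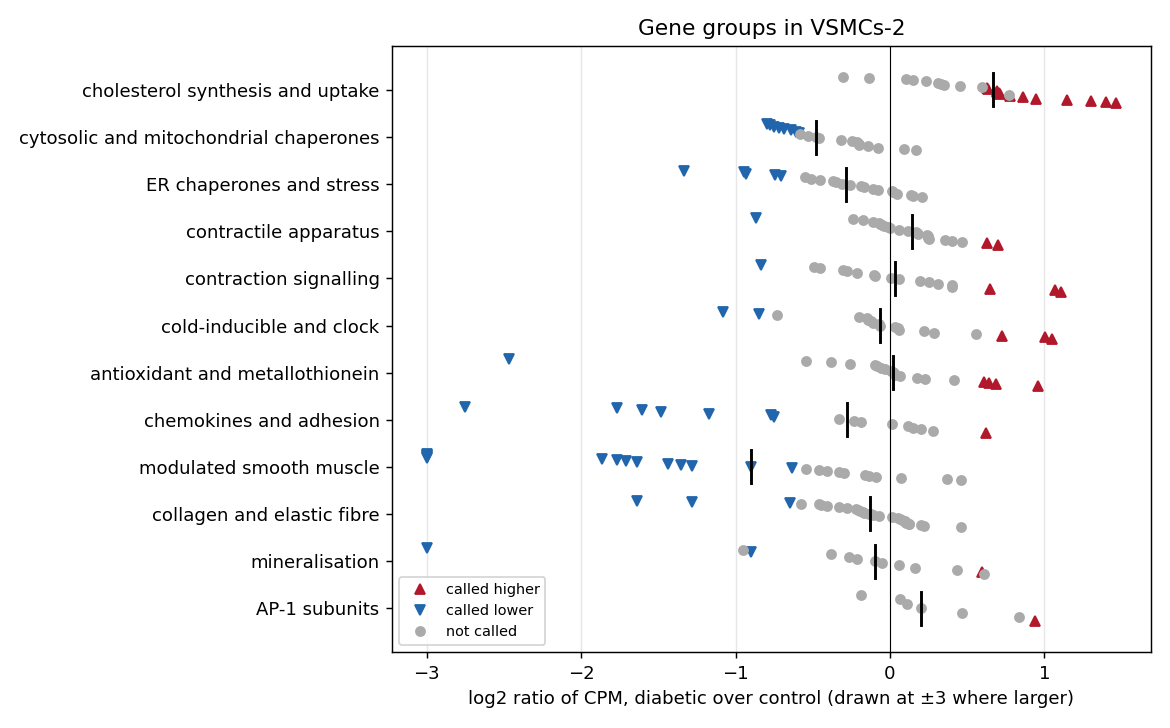
Log2 ratio of CPM, diabetic over control, of each measured gene in 12 groups in VSMCs-2; triangles mark genes called higher (red, upward) or lower (blue, downward), grey circles genes not called, and black bars group medians. Cholesterol genes lie mostly right of 0, with a median of 0.66, and the cytosolic and mitochondrial chaperones mostly left of it, with a median of -0.48.

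Defence against oxidants gave 4 genes called higher and 1 lower of 20. Sod3, the extracellular superoxide dismutase that smooth muscle secretes into the wall, had 926 CPM in diabetic and 574 CPM in control cells, a ratio of 1.61 (1.52 to 1.71). The metallothioneins Mt1 and Mt2 had ratios of 1.52 (1.47 to 1.57) and 1.56 (1.47 to 1.66), and both dropped just under 1.5 when every cell was weighted equally, at 1.48 and 1.46. Gclm, a subunit of the enzyme that limits glutathione synthesis, was at 1.95 (1.23 to 3.19). Gpx3 was called lower at 0.18 (0.12 to 0.27), and 1 cell held 31.4% of its 35 diabetic UMIs. It was not called, at 0.80, in cells with a mitochondrial share of 4 to 6%. In VSMCs-1 its ratio was 2.31 (1.06 to 5.56), on 28 diabetic and 9 control UMIs. Nqo1, a target of the oxidant sensor Nrf2, was at 1.02, Hmox1 at 0.68 and Prdx1 at 0.77, none of them called. Calls among 14 glucocorticoid-regulated genes went both ways: the metallothioneins were called higher, and Tsc22d3, Zbtb16 and Pdk4 lower. Over all genes, 4.77% were called higher and 3.90% lower.

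Of 19 cold-inducible and clock genes, 3 were called higher and 2 lower, beside 4.77% called higher and 3.90% lower over all genes. Cirbp, an RNA-binding protein induced by mild cold, had 242 CPM in diabetic and 117 CPM in control cells, a ratio of 2.07 (1.83 to 2.34), and Rbm3, of the same kind, had 380 and 229 CPM, a ratio of 1.66 (1.52 to 1.81). Arntl (Bmal1) was called higher at 2.01 (1.15 to 3.71), and Per3 and Bhlhe41 lower at 0.47 and 0.55, on at most 66 UMIs in either library, and Per3 was at 1.74 when thinned. The better measured clock output Nr1d1 was at 0.96 (0.84 to 1.09) and Dbp at 0.87.

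AP-1 subunits were measured in full. Of 7, Jund (chromosome 8, 70698949 to 70700616, plus strand) was called higher, with 158 CPM in diabetic and 82.3 CPM in control cells, a ratio of 1.92 (1.66 to 2.23). A gene model, Gm11175, overlaps Jund on the other strand, so reads of the 2 may not be told apart. Junb followed at 1.38 (1.29 to 1.48), Jun at 1.05, Fosb at 1.08 and Fosl2 at 1.15. Fos, at 4426 CPM in diabetic and 5043 CPM in control cells, was at 0.88 (0.86 to 0.90). Of 26 early-response genes, Ier2 at 1.64 and Socs3 at 1.57 were called higher, while Egr1, Atf3 and Nr4a1 were at 1.16, 0.98 and 1.03. The libraries were single and the cells went through digestion, so the level of early-response genes before it is not known.

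Genes of the modulated state were mostly lower in the diabetic library, from few cells. Of 25 measured genes, 14 were called lower and 0 higher, with a median log2 ratio of -0.90. Lum (lumican) had 36.4 CPM in diabetic and 132 CPM in control cells, a ratio of 0.28 (0.23 to 0.33), and 1 cell held 44.7% of its diabetic and 1 cell 20.9% of its control UMIs. Single control cells held 97.8% of Col2a1, 98.0% of Chad, 97.4% of Prg4 and 65.2% of Spp1 UMIs; Col2a1, cartilage collagen, had 0 UMIs in the diabetic library, at least 158-fold lower when 3 UMIs are set as the floor in that library. Without the 5% of cells richest in other types' transcripts 10 genes were called lower and the median was -0.44, and without the top cell of each gene 11 were, with the median at -0.70. Fibroblast markers, which share Lum with this list, were lower as well, at the sums given above, and their part in it was not tested. The genes of this list that VSMCs-2 cells express widely were closer together: Bgn (biglycan) at 1.05, Col3a1 at 0.79, Col1a1 at 0.73 (0.68 to 0.78) and Fn1 at 1.29 (1.24 to 1.35).

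In the matrix the class itself lays down, 3 of 30 collagen and elastic fibre genes were called lower and 0 higher, namely Col8a1, Col14a1 and Fbln2; Col8a1 was at 1.24 in cells with a mitochondrial share of 4 to 6%. Eln (elastin) had 1864 CPM in diabetic and 2776 CPM in control cells, a ratio of 0.67 (0.65 to 0.69), just short of a call; its control UMIs were spread very unevenly, with a variance of 39.9 times the mean at 2000 UMIs, against 3.19 times in diabetic cells. Fbn1 (fibrillin-1), Fbln5 and Lox, which assemble and cross-link elastic fibres, were at 1.09, 0.92 and 0.92. Of 25 adhesion genes, only Dsp was called, near the 4.77% called higher over all genes. In mineralisation, Sost had 669 CPM in diabetic and 442 CPM in control cells, a ratio of 1.51 (1.42 to 1.62), and Mgp was at 0.83 (0.82 to 0.84). Tnfrsf11b (osteoprotegerin) had 27.3 CPM in diabetic and 51.0 CPM in control cells, a ratio of 0.53 (0.42 to 0.68), but its ratio was 1.28 in cells with a mitochondrial share of 4 to 6%. In TGF-beta and Notch signalling Smad6, an inhibitory Smad, was called higher at 2.10, and Smad2 and Jag1 lower at 0.57 and 0.66, with Jag1 at 1.23 when thinned. Ctgf, a target of TGF-beta, was at 0.98.

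Chemokines and adhesion molecules gave 7 genes called lower and 1 higher of 16. Vcam1, to which leukocytes adhere, had 31.7 CPM in diabetic and 108 CPM in control cells, a ratio of 0.29 (0.24 to 0.35), and 1 cell held 43.6% of its diabetic UMIs. Ccl2 and Ccl7, which attract monocytes, had at most 25.9 CPM in either library and ratios of 0.33 and 0.15, with Ccl2 at 1.74 when thinned. Cxcl1 was the gene called higher, at 1.54 (1.19 to 2.005), with 28.1% of its diabetic UMIs in 1 cell, and it was not called, at 1.41, without the top cell of each library, or at 0.43 in cells with an Rgs5 UMI. Macrophage markers were lower too, at the sums given above, and their part in this was not tested. Nfkbia, which the class expresses in more cells, was at 0.85 (0.78 to 0.93). The antigen-presentation genes B2m at 0.77 and H2-K1 at 0.80 were not called, Bst2 was called lower at 0.63, and Ifit3 was called higher at 3.53 on few UMIs. Of the regulators that define smooth muscle, Myocd (myocardin) was at 1.01 (0.79 to 1.31), Srf at 1.43 (1.11 to 1.85) and Klf4, known for repressing contractile genes, at 1.07, and only Mef2d was called, at 1.56 (1.24 to 1.99).

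The remaining lists held few calls. H1f0, a linker histone like Hist1h1c, was called higher at 1.65 (1.30 to 2.11), whereas the core histone transcripts H3f3a and H3f3b were at 1.04 and 1.10. Of 20 nuclear genes of the respiratory chain, only Cox5a was called, higher at 1.65 (1.37 to 2.001), which is near the 4.77% called higher over all genes. Of 10 measured cell cycle genes, Tyms was called lower at 0.52, and Mki67 and Cdk1 had fewer than 10 UMIs over both libraries.

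Several of these ratios differed between VSMCs-2 and other classes of the same libraries. Each difference is given as the VSMCs-2 ratio divided by the other class's ratio, with an interval from the 4 UMI sums that is not adjusted for the number of genes compared. Single genes compared in this way had been named for their VSMCs-2 ratio or as class markers, and the part of that selection in the differences was not tested. In VSMCs-1 Rgs5 had 2185 CPM in diabetic and 2313 CPM in control cells, a ratio of 0.94 (0.86 to 1.04), which makes the VSMCs-2 ratio 2.22 times as large (1.996 to 2.46). Des was lower in diabetic VSMCs-1, at 0.38 (0.21 to 0.67) on only 20 diabetic and 39 control UMIs, and Actg2 was at 0.93 (0.78 to 1.11). The VSMCs-2 ratios of Des and Actg2 were thus 4.01 (2.33 to 6.90) and 1.75 times (1.46 to 2.11) as large. The smooth muscle classes thus differed in the direction or size of these ratios. In Fib-2, Rgs5 was seen at 82.7 CPM in diabetic and 25 CPM in control cells, a ratio of 3.31 (2.55 to 4.31), larger than in VSMCs-2 at a level far below it. Acta2 stood there at 691 and 442 CPM in the same order, and the part of free smooth muscle RNA in the Fib-2 value was not tested.

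Summed over the list, cholesterol genes had a ratio of 1.53 (1.44 to 1.63) in VSMCs-2, 1.10 (0.92 to 1.33) in VSMCs-1, 1.08 (1.00 to 1.18) in Fib-2 and 0.89 (0.76 to 1.04) in ECs (endothelial cells). The VSMCs-2 ratio was 1.41 times that of Fib-2 (1.27 to 1.57), 1.39 times that of VSMCs-1 (1.15 to 1.68) and 1.72 times that of ECs (1.46 to 2.02). By gene, VSMCs-1 had 2 of 6 measured cholesterol genes called higher and 0 lower, with a median log2 ratio of 0.32. Fdps was at 1.87 (1.14 to 3.18) in VSMCs-1, against 1.64 in VSMCs-2, while Hmgcs1 was at 0.86 (0.49 to 1.53), against 1.55. Both chaperone sums were lower in the diabetic library in all 4 classes. The heat-shock sum stood at 0.69 in VSMCs-2, 0.62 in VSMCs-1, 0.90 in Fib-2 and 0.82 in ECs, and the ER sum at 0.75, 0.84, 0.65 and 0.76 in that order. By gene, the median log2 ratio of heat-shock genes was -0.57 in VSMCs-1, -0.15 in Fib-2 and -0.19 in ECs. For ER genes it was -0.03, -0.43 and -0.30 in that order. Outside these classes the heat-shock median was 0.02 in macrophages, 0.01 in Fib-1 and -0.24 in Fib-3. AP-1 subunits summed to 0.95 (0.93 to 0.97) in VSMCs-2 against 1.06 (0.98 to 1.16) in VSMCs-1, 1.09 (1.07 to 1.12) in Fib-2 and 1.30 (1.25 to 1.35) in ECs. The VSMCs-2 ratio of the sums was 0.73 times that of ECs (0.70 to 0.76). Fos, whose level and ratio below 1 are given above, gave most of the VSMCs-2 sum. Of the 7 subunits, 6 had a ratio above 1 in VSMCs-2, with a median log2 ratio of 0.20. Over the subunits measured in each class, the median was 0.63 in VSMCs-1, 0.42 in Fib-2 and 0.63 in ECs. Jund by itself was above 1 in VSMCs-2 at 1.92, in Fib-2 at 1.57 (1.37 to 1.80) and in ECs at 1.33 (0.97 to 1.82).

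**Figure D5:**
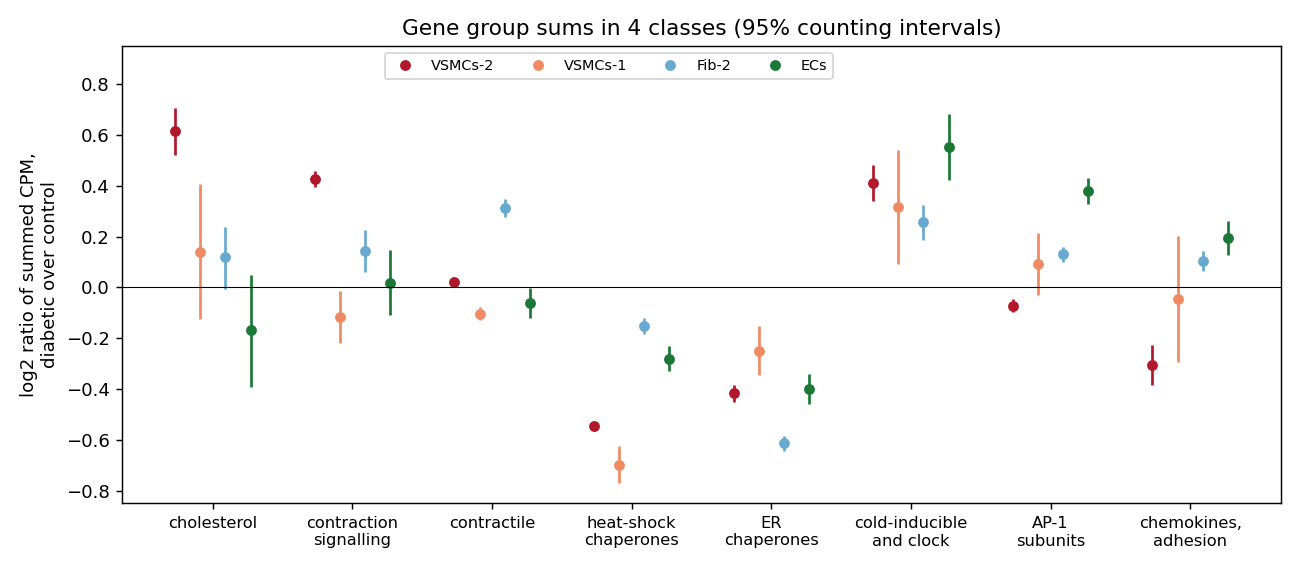
Log2 ratio, diabetic over control, of the summed CPM of 8 gene groups in VSMCs-2 (red), VSMCs-1 (orange), Fib-2 (blue) and ECs (green), with 95% counting intervals. The cholesterol sum is highest in VSMCs-2, at a ratio of 1.53, while both chaperone sums lie below 0 in all 4 classes.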

How the data were processed

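Each library was a 10x 3' single-cell library from pooled aortae, and the deposited values were whole-number counts of UMIs per gene and barcode. The submitters' processing notes list Cell Ranger 3.1.0, Partek and the mouse build mm10 (GRCm38) as used by the authors. The annotation release and strand setting are not given in the sources used here, and cell classes came from the authors' deposited annotation.

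UMIs were summed over VSMCs-2 cells of a library and divided by the class total to give CPM. Ratios are diabetic over control with exact conditional binomial 95% intervals, which cover counting error only; shares have exact Clopper-Pearson intervals. With 1 library per group no test across samples exists. Shares of cells with a UMI were computed after drawing each cell down to 1000 or 2000 UMIs. No doublets were called here; alternatives without the 5% of cells with most UMIs, or richest in other types' transcripts, were computed instead. The calling was run on simulated sums drawn with counting error alone. That run cannot check the calls for genes spread unevenly over cells or for differences between mice. Python 3.11.15, numpy 2.4.6, scipy 1.17.1, pandas 2.3.3 and matplotlib 3.10.9 were used, and edgeR 4.0.16 for trimmed mean scaling (TMM) of the summed counts as an alternative. Gene coordinates are from GENCODE vM21 and promoters from RefSeq, both GRCm38.

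Named genes were the class markers, the 15 genes farthest out in either direction among calls spread over cells (leaving out mitochondrial, ribosomal protein and haemoglobin genes), up to 6 called members per list with members that went the other way, and the genes highest over other classes. Further members of the lists, the cells' split by Rgs5, the motifs and the values of genes not called were chosen after values were seen. The members, lists and motifs were chosen with earlier results of these data known. The alternatives by Rgs5, by mitochondrial share and with unclassified barcodes were added after seeing the data. A few genes that this rule or these lists hold are not reported here.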

Additional observations from a re-analysis of the deposited data

Results flagged for a closer look

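Of 62 genes compared between VSMCs-2 and VSMCs-1, 27 had diabetic over control ratios whose own ratio had an interval that left out 1, without adjustment for the number of genes. The 62 were the class markers and genes named because they were called in VSMCs-2. Nearly all thus had VSMCs-2 ratios at least 1.5-fold away from 1 by selection, and the part of that selection in these differences was not tested. Of the 27, the 8 given here were called in VSMCs-2 with UMIs spread over cells, differed at least 1.5-fold between the classes and are on no marker list of another cell type except that of pericytes. The VSMCs-2 ratio was the larger one for Rgs5 at 2.22 times, Actg2 at 1.75 times, Des at 4.01 times (on the few VSMCs-1 UMIs given above), Ppp1r14a at 1.98 times, Hmgcs1 at 1.80 times (1.02 to 3.16) and Tceal6 at 2.63 times the VSMCs-1 ratio. It was the smaller one for Ahsa1 at 0.66 (0.45 to 0.98) and Zbtb16 at 0.56 (0.33 to 0.97). For Sncg, which was lower in diabetic VSMCs-2 cells and had a ratio of 1.34 (1.05 to 1.70) in Fib-2, the VSMCs-2 ratio was 0.41 times that of Fib-2 (0.32 to 0.52).

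Barcodes that the authors' annotation leaves without a class also held smooth muscle transcripts. In the diabetic library 79 of 934 such barcodes, and in the control library 48 of 1155, had a share of smooth muscle marker UMIs at or above the 5th percentile of VSMCs-2 cells. Of these, 29 diabetic and 4 control barcodes had 3000 or more genes, and 50 diabetic and 42 control barcodes had over 10% mitochondrial UMIs.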

How the results depend on the processing

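No paired analysis was possible because each group is 1 library. The alternatives changed cells, counts or scaling, never the mice, so none of them stands in for a replicate. With every cell weighted equally, 910 of all genes passed as higher and 546 as lower. No interval was computed in that setting, so these rest on the 1.5-fold rule and the UMI minimum alone. Thinned to 1000 UMIs a cell, which leaves fewer UMIs, 167 were called higher and 178 lower; with at least 100 UMIs, 281 and 197; at 2-fold, 150 and 159; and 241 were called lower in cells with a mitochondrial share of 4 to 6%.

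Cholesterol genes called higher numbered 4 when thinned, 4 at 2-fold, and 6 each in cells with and without Rgs5. Heat-shock genes called lower numbered 4 when thinned and 0 at 2-fold, and ER chaperones 1 at 2-fold. Modulated genes called lower numbered 5 when thinned, 7 in cells with Rgs5 and 8 in the mitochondrial window. Chemokine and adhesion genes called lower numbered 1 when thinned, 2 at 100 UMIs, and 3 in cells with Rgs5, in cells without it and in the mitochondrial window. Over all genes, 370 were called higher and 328 lower of 8166 tested in cells with Rgs5. In cells without it these were 412 and 286 of 7987, and in the mitochondrial window 375 and 241 of 7875. Thinning left 4554 genes tested and the 100 UMI minimum 6531, against 9729. The part of fewer tested genes in the list counts was not tested.

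The class made up 24.8% of diabetic and 11.8% of control barcodes in all, 41.0% and 20.6% of non-immune cells, and 35.9% of diabetic cells with unclassified barcodes added.

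Ratios that crossed 1 were, thinned, Ccl2 at 1.74, Jag1 at 1.23, Per3 at 1.74, Plin2 at 1.34 and Slc2a4 at 0.51; in the mitochondrial window, Col8a1 at 1.24, Igf1 at 1.48 and Tnfrsf11b at 1.28; in cells with Rgs5, Cxcl1 at 0.43, Pln at 1.61 and Car3 at 0.29; and Car3 at 0.97 without cells rich in other types' transcripts. The cause was not tested. Under TMM scaling all log2 ratios shift by 0.03.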

Other observations

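At least 1 UMI of the adipocyte list was found in 45.0% of diabetic and 29.8% of control VSMCs-2 cells, and 5 or more in 0.350% of diabetic and 0% of control cells. Cfd, the adipocyte protease adipsin, had 81 UMIs in the diabetic library and 0 in the control library, at least 13.1-fold higher with 3 UMIs set as the floor in the control library. The adipocyte list summed to 116 CPM in the diabetic and 62.9 CPM in the control library. A single cell held 19.3% of the list's diabetic UMIs, against 1.71% for the top control cell, and its part in the Cfd difference was not tested. Alas2, the enzyme that starts haem synthesis in red cell precursors, had 229 UMIs in the diabetic and 0 in the control library, at least 37.2-fold higher by the same floor. The chondrocyte list summed to 35.5 CPM in diabetic and 164 CPM in control cells, with 72.2% of the control UMIs in 1 cell.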
